A study of Zea mays with 18 samples.

Results

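The 4 DAP maize embryo was set against the unfertilized central cell, with RNA measured in 3 libraries of each, 6 of the 18 libraries of the series (DAP, days after pollination). A gene entered the comparison where at least 3 of these 6 libraries held at least 1 CPM (the deposited normalised read count), which left 27594 of the 38300 genes in the deposited table. At that edge, the genes with the lowest values inside had a third-highest level of 1.002 CPM and those with the highest outside had 0.999 CPM. All material came from the inbred line B73 grown in a greenhouse, with no treatment given in the labels. The embryo libraries came from self-pollinated ears 4 days after pollination, and the central cell libraries, labelled as endosperm of 0 DAP, from unfertilized ears. Tissue was cut from kernel sections by laser capture, and the sections behind each replicate were pooled over several kernels of 1 ear, so that a library averages many sister embryos or central cells. The other 12 libraries hold endosperm of 1, 2, 3 and 4 DAP, 3 for each day. Per the labels, the RNA concentration of both tissues compared here was read from the 18S ribosomal band, because a product carried over from purification inflated the usual reading.

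In the maize ovule the egg cell gives rise to the embryo, and the much larger central cell gives rise, after its own fertilization, to the endosperm, the tissue that feeds the embryo. The mature central cell rests without dividing until fertilization. The young embryo is a small, dividing body in which an outer layer, a suspensor and the first polarity of auxin transport are laid down, while leaves and roots are still to come. The comparison therefore sets dividing offspring tissue against a resting maternal gametophyte cell, and in such bulk samples fewer cells of a type and less RNA per cell cannot be told apart.

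The embryo libraries held 9572961, 73813889 and 47136879 recovered reads, and the central cell libraries 76074658, 78713950 and 44250242. Embryo replicate 1 was the shallowest and stood apart: over genes, which are not independent replicates, its Pearson r with the other embryo libraries was 0.919 and 0.921, while those 2 reached 0.970 with each other. The central cell libraries had r values of 0.924 to 0.963 among themselves. Outside its own group, each embryo library was closest to the 4 DAP endosperm (r 0.874 to 0.882) and each central cell library to the 1 DAP endosperm (r 0.892 to 0.896). The number of genes at or above 1 CPM was 26062 ± 284 in the embryo and 26180 ± 578 in the central cell (SD, n = 3 each). This difference was within the spread between libraries (exact two-sided permutation test, p = 0.8, where 0.1 is the smallest p the design allows).

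A large share of the transcriptome differed. Of the 27594 genes tested, 11764 (42.6%) were called at an adjusted p below 0.05 by limma on log2(CPM + 1): 5746 (20.8%) rose and 6018 (21.8%) fell in the embryo relative to the central cell. When each library was scaled to the same total instead of the deposited scaling, 7127 rose and 4876 fell, so that the share of calls in the upward direction was 59.4% against 48.8%. That scaling moved the median log2 difference over all genes by 0.16, with a median of 0.00 under the deposited scaling, and the changes described here are relative to the deposited scaling. In 13058 genes (47.3%) the values of the 3 embryo libraries did not overlap those of the 3 central cell libraries. Differences of at least 4-fold on the log2(CPM + 1) scale were called upward in 1172 genes and downward in 1129. Among the genes called upward, 43 had no read in any central cell library, and among those called downward, 76 had no read in any embryo library. These numbers cannot be compared directly, because the depth differed. On average 3 reads per library stood for 0.0506 CPM in the central cell and 0.121 CPM in the embryo. Without embryo replicate 1, 10918 genes were called, and 9963 of these genes were among the 11764.

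The tissue labels were first checked against marker genes. Of 7 embryo markers in the table, 5 rose in the embryo (wox9B, wox9C, wox2A, lec1 and vp1), the epidermal homeobox gene ocl1 did not pass the test, and the shoot meristem gene kn1 was too low to be tested. Their summed level was 59.2, 142 and 146 CPM in the embryo, against 11.2, 22.7 and 30.3 CPM in the central cell. Of 7 central cell and embryo sac markers, the 5 genes es1, es2, es4, EBE-1 and EBE-2 fell in the embryo, while the Polycomb genes fie2 and mez1 did not pass the test. Their summed level was 142, 166 and 140.3 CPM in the embryo, against 589, 1267 and 766 CPM in the central cell. The summed levels did not overlap between the tissues for either list, in the direction of the labels. These genes were chosen with earlier results of these data known, so that this is no independent check of the labels. Over all genes tested, 20.8% were called higher and 21.8% lower. Neither list as a whole singled out its tissue among the 18 libraries. The embryo list reached 77.2 CPM in 1 library of 1 DAP endosperm, above embryo replicate 1. The central cell list summed to 784 to 1500.2 CPM in the 2 DAP endosperm, a range that overlaps that of the central cell. The peptide genes es1, es2 and es4 alone summed to at most 27.8 CPM in any endosperm library, against 181 to 474 CPM in the central cell. The 9 genes of the photosynthesis list, a check for green tissue, summed to 223, 372 and 316 CPM in the embryo and 294, 347 and 433 CPM in the central cell. The 4 anthocyanin pathway genes used as markers of maternal tissue summed to 3.46, 7.52 and 7.99 CPM in the embryo and 7.202, 9.54 and 20.3 CPM in the central cell, and only a2 of their 2 tested members was called, lower. The ranges of both sums overlapped. The a2 call was lost without embryo replicate 1 (adjusted p = 0.10), without central cell replicate 3 (0.086) or with only the 6 libraries compared (0.058; 0.0013 to 0.10 over all alternatives).

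The 4 named genes of the embryo-surrounding region, a layer of endosperm that wraps the young embryo and secretes small peptides, were among the genes that rose most. The gene esr1 was at 255, 397 and 399 CPM in the embryo, against 0, 0.359 and 0.414 CPM in the central cell (log2 difference 8.11, SE 0.41, adjusted p = 1.8e-10). For esr2 the values were 100.5, 225 and 228 CPM in the embryo, against 0.222, 0.334 and 0.0975 CPM in the central cell (log2 difference 7.16, adjusted p = 6.7e-09). For ESR3 they were 51.6, 73.6 and 77.4 CPM in the embryo, against 0.0554, 0.0619 and 0.0975 CPM in the central cell (log2 difference 5.98, adjusted p = 9.5e-10). The fourth gene, esr-6, reached 62.3, 176 and 133 CPM in the embryo, against 0.0139, 0.0742 and 0 CPM in the central cell (log2 difference 6.80, adjusted p = 8.9e-09). No library of the 2 tissues overlapped for any of them, and the central cell was near 0 throughout. At 4 DAP the endosperm libraries held less of them: esr1 was at 23.6, 124 and 84.5 CPM there, below every embryo library (log2 difference 2.43, adjusted p = 0.00030, embryo minus 4 DAP endosperm). Of all genes tested, 23.6% were called between the embryo and the 4 DAP endosperm, with 14.1% higher and 9.56% lower in the embryo. The contrast was called for esr2 (log2 difference 2.36, adjusted p = 0.0018), ESR3 (log2 difference 2.68, adjusted p = 1.9e-05) and esr-6 (log2 difference 2.73, adjusted p = 0.00040). The contrasts with the endosperm and with the central cell share the embryo libraries. The whole list of endosperm cell-type genes summed to 612, 1027 and 984 CPM in the embryo, against 85.2, 105 and 152 CPM in the central cell. Beside the embryo-surrounding genes, the members ae3, dek1, cr4, vpp1, Sal1 and MRP1 passed the filter and are described with the embryo sac genes. The members that did not pass it, genes named for the transfer layer and the aleurone, formed together with the endosperm Polycomb gene fie1 a set of 18 genes, whose low level in both tissues follows from the filter. They summed to 2.84, 3.91 and 6.65 CPM in the embryo and 1.52, 2.89 and 0.951 CPM in the central cell, against 2208, 2619.7 and 805 CPM in the 4 DAP endosperm. Of these 18 genes, 5 had no read in any embryo library and 4 had none in any central cell library. Whether RNA of the embryo-surrounding layer itself entered the embryo libraries was not tested.

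**Figure D1:**
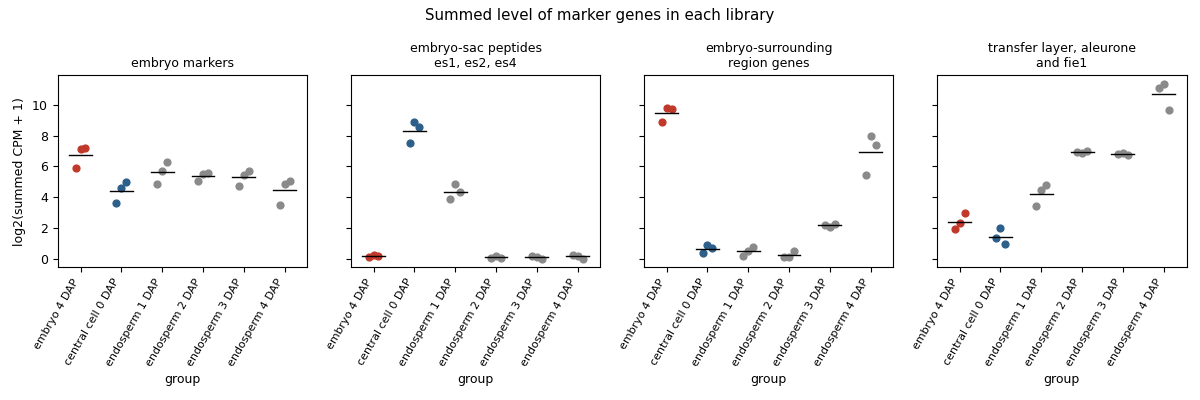
Each point is 1 library and gives log2(summed CPM + 1) of a marker list on the vertical axis, with the embryo at the left, then the central cell and the endosperm from 1 to 4 DAP, and a line at the group mean. Summed es1, es2 and es4 lay at 0.0888 to 0.161 CPM in the embryo against 181 to 474 CPM in the central cell, while the 4 embryo-surrounding region genes summed to 469 to 872 CPM in the embryo.

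Among genes with a name, the one furthest above the central cell was CER1, whose Arabidopsis namesake makes the alkanes of cuticular wax. It was at 546, 1003 and 890.3 CPM in the embryo, against 0, 1.21 and 3.88 CPM in the central cell (log2 difference 8.48, SE 0.40, adjusted p = 6.2e-11). The mean was 479-fold higher in the embryo. Its mean in the 4 DAP endosperm was 0.162 CPM. The gene hscf1 reached 99.9, 204 and 193 CPM in the embryo, against 0, 0.124 and 0 CPM in the central cell (log2 difference 7.26, SE 0.22, adjusted p = 1.8e-12), with 0.00903 CPM in the 4 DAP endosperm. In the endosperm of 1, 2 and 3 DAP the means were 0.221, 0.0619 and 0.0254 CPM for CER1 and 0.0217, 0.00637 and 0.156 CPM for hscf1. The glutathione S-transferase gene gst23 had 27.8, 152 and 128 CPM in the embryo, against 0, 0.136 and 0.0244 CPM in the central cell (log2 difference 6.30, adjusted p = 2.5e-09). The pathogenesis-related gene PR10 had 12.35, 97.1 and 116 CPM in the embryo, against 0, 0 and 0 CPM in the central cell. This was at least 1487-fold higher with the central cell set at a floor of 3 reads per library. Embryo replicate 1 had the lowest level of both. The gene cad1 had 117, 189.6 and 169.9 CPM in the embryo, against 3.64, 3.19 and 4.41 CPM in the central cell (42.4-fold higher, log2 difference 5.05, adjusted p = 7.7e-09). The auxin response factor gene ARF23 had 51.8, 31.6 and 37.4 CPM in the embryo, against 0.194, 0.346 and 0.292 CPM in the central cell (145-fold higher, log2 difference 4.99, adjusted p = 7.5e-10). A gene without a name, GRMZM2G392885, belonged to the 5 largest differences among genes with any reference entry, at 59.0, 215 and 241 CPM in the embryo, against 0.125, 0.470 and 0.292 CPM in the central cell (log2 difference 6.83, adjusted p = 5.1e-07).

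At the other end stood d3 (dwarf3), a gibberellin synthesis gene of the cytochrome P450 family. It was at 0.888, 0.235 and 0.179 CPM in the embryo, against 114, 276 and 457 CPM in the central cell (log2 difference -7.45, SE 0.52, adjusted p = 8.5e-09), 650.3-fold lower in the embryo. The embryo sac peptide es4 followed with 0.0888, 0.0991 and 0.0198 CPM in the embryo, against 84.4, 214 and 163 CPM in the central cell (log2 difference -7.08, SE 0.26, adjusted p = 3.5e-12). Its 10 reads over the 3 embryo libraries give 2222-fold lower. This fold is imprecise, because the embryo mean of es4 was below the mean level of 3 reads per library there (0.121 CPM). The related peptides es2 and es1 were at 0, 0.0495 and 0.0793 CPM and 0, 0.0124 and 0 CPM in the embryo, against 61.4, 139 and 117 CPM and 34.9, 121 and 105 CPM in the central cell (log2 differences -6.60 and -6.27, adjusted p = 3.4e-12 and 5.9e-09). These peptide genes were near 0 in all embryo libraries, and es1 had a single read there. An actin gene, GRMZM2G006765, was at 2.31, 2.65 and 3.89 CPM in the embryo, against 275, 207 and 409 CPM in the central cell (101-fold lower, log2 difference -6.20, adjusted p = 3.4e-11). GRMZM2G039942, which the reference table names ae1 along with GRMZM2G032628, was at 1.15, 10.5 and 8.99 CPM in the embryo, against 378, 863 and 1336 CPM in the central cell (log2 difference -6.92, adjusted p = 5.3e-07). The second ae1 model did not pass the test, at 66.4, 75.9 and 77.4 CPM in the embryo, against 98.3, 73.05 and 69.2 CPM in the central cell. The annexin gene Ann8, the beta-expansin gene expB6 and the beta-glucosidase gene glu1 fell with log2 differences of -5.80, -5.43 and -5.36. Of the genes with a reference entry but no name, GRMZM2G091774 showed the largest fall. It was at 3.38, 2.28 and 2.04 CPM in the embryo, against 2048, 2136 and 1466 CPM in the central cell (log2 difference -9.04, SE 0.37, adjusted p = 1.1e-11). The other 3 unnamed genes among the 5 lowest with any reference entry were GRMZM2G021051, GRMZM2G078799 and GRMZM2G118873, with log2 differences of -7.85, -7.82 and -7.36.

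**Figure D2:**
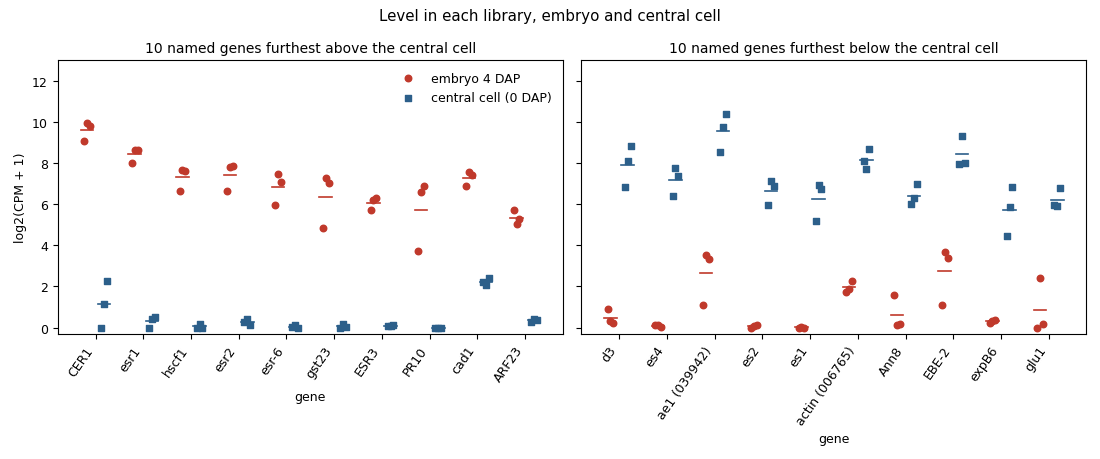
Each point is 1 library and gives log2(CPM + 1), with embryo libraries (circles) left of central cell libraries (squares) for each gene and a line at the group mean. The left panel holds the 10 named genes with the highest log2 difference, from 8.48 for CER1 to 4.99 for ARF23, and the right panel the 10 with the lowest, from -7.45 for d3 to -5.36 for glu1, all chosen among called genes whose groups do not overlap.

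Most regulators of embryo identity that were tested rose. Of 15 genes in the embryo regulator list, 13 were tested, 8 rose and 2 fell (61.5% and 15.4% of those tested, beside 20.8% and 21.8% over all genes). Their median log2 difference was 1.39, against 0.00 over all genes tested. The WUSCHEL-related homeobox gene wox9B, of a family whose Arabidopsis members pattern the early embryo, had 18.3, 25.9 and 18.3 CPM in the embryo, against 0, 0 and 0.0487 CPM in the central cell (log2 difference 4.41, SE 0.15, adjusted p = 2.2e-12). Its relatives wox9C (7.91, 18.9 and 21.8 CPM in the embryo, against 0, 0.223 and 0 CPM in the central cell) and wox9A (9.77, 3.54 and 3.81 CPM against 0, 0.0247 and 0 CPM) followed the same order, with log2 differences of 3.90 and 2.61. DESeq2 gave adjusted p = 0.094 and 0.052 for these 2 genes, with ranges of 2.0e-12 to 0.094 over all alternatives and 2.0e-10 to 0.052 over all alternatives. The 3 wox9 genes were close to absent from the central cell and present in all embryo libraries. The transcription factor gene vp1 (viviparous1), later needed for seed maturation, was at 13.3, 36.2 and 40.2 CPM in the embryo, against 0.0416, 0.0495 and 0.146 CPM in the central cell (log2 difference 4.70, SE 0.29, adjusted p = 2.2e-09). The gene lec1, for a NF-Y subunit that promotes embryo fate in Arabidopsis, was at 5.95, 26.3 and 20.8 CPM in the embryo, against 0, 0.0124 and 0 CPM in the central cell (log2 difference 4.00, SE 0.32, adjusted p = 3.9e-08). In the 4 DAP endosperm the means of wox9B, wox9C, wox9A, vp1 and lec1 were 0.0239, 0, 0, 0.285 and 0.0351 CPM. The remaining calls were smaller. The gene rld1 (rolled leaf1) had 132, 96.5 and 125 CPM in the embryo, against 19.1, 29.7 and 47.5 CPM in the central cell (log2 difference 1.92, adjusted p = 0.00021). The gene ocl4 had 32.2, 77.4 and 86.3 CPM in the embryo, against 18.8, 20.4 and 29.003 CPM in the central cell (log2 difference 1.39, adjusted p = 0.012). The gene wox2A had 1.60, 3.34 and 5.89 CPM in the embryo, against 0.623, 1.16 and 0.658 CPM in the central cell (log2 difference 1.25, adjusted p = 0.018). The 2 models named wox13A carry almost the same values and may share reads. Both fell, with 1.42, 1.16 and 0.754 CPM in the embryo, against 1.77, 3.93 and 4.27 CPM in the central cell in GRMZM2G069274 (log2 difference -0.99, adjusted p = 0.013). Both wox13A calls were lost without embryo replicate 3, central cell replicate 2 or central cell replicate 3 (adjusted p = 0.053, 0.055 and 0.057 in GRMZM2G069274; 0.0030 to 0.057 over all alternatives). They were lost with edgeR too (adjusted p = 0.056 in GRMZM2G069274). The wox2A call was lost without embryo replicate 3 (adjusted p = 0.10), central cell replicate 1 (0.053) or central cell replicate 3 (0.051; 0.00065 to 0.10 over all alternatives). The ocl4 call was lost without embryo replicate 2 (0.053) or 3 (0.062; 0.00064 to 0.062 over all alternatives). Levels overlapped between the tissues for ocl1, at 10.3, 31.4 and 39.1 CPM in the embryo, against 9.17, 21.005 and 28.9 CPM in the central cell. They overlapped as well for ocl3, at 6.84, 18.3 and 16.6 CPM in the embryo, against 7.49, 11.2 and 13.2 CPM in the central cell. The gene wox13B had 0.711, 1.19 and 1.27 CPM in the embryo, against 0.637, 0.717 and 3.58 CPM in the central cell. None of the 3 was called. The gene kn1 had 1.87, 0 and 0 CPM in the embryo, against 1.41, 0.297 and 0.585 CPM in the central cell. It was too low to be tested, as was ocl5.

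In the wider homeobox list 12 of 19 tested members (of 23) were called higher in the embryo and 0 lower (63.2% and 0% of those tested, beside 20.8% and 21.8% over all genes), with a median of 1.13. The other 7 were not called, among them hdz10 with a log2 difference of -0.50. HD-ZIP class IV genes, which mark the outer cell layer in maize, led it. HDZIV6_OCL6 was at 54.4, 103 and 96.2 CPM in the embryo, against 3.85, 2.44 and 4.95 CPM in the central cell (22.6-fold higher, log2 difference 4.15, adjusted p = 2.7e-07). HDZIV8_OCL8 and HDZIV14_OCL14 followed with log2 differences of 3.53 and 2.56, and the knotted-related gene knox6 with 2.13. The class did not rise as a whole: ocl4 was called (log2 difference 1.39), while ocl1 and ocl3 were not (log2 differences 0.38 and 0.29). Of 7 receptor kinase genes of embryo and meristem, 5 of 6 tested rose and 0 fell (83.3% and 0% of those tested, beside 20.8% and 21.8% over all genes). ERECTA, a receptor of growth and epidermal patterning in Arabidopsis, was at 317, 162 and 155 CPM in the embryo, against 37.3, 21.3 and 27.4 CPM in the central cell (log2 difference 2.79, SE 0.45, adjusted p = 8.2e-05). The somatic embryogenesis receptor kinases serk1, serk2 and serk3 and the epidermal kinase gene cr4 (crinkly4) rose by 1.80, 1.19, 0.61 and 1.02 on the log2 scale, and fea2 did not pass the test. The list of NF-Y genes, subunits of a CCAAT-binding factor that includes lec1, had 8 members higher and 1 lower among 14 tested (57.1% and 7.14% of those tested, beside 20.8% and 21.8% over all genes), median 1.50. Of the 2 models named NF-YA4, GRMZM5G853836 had 11.1, 28.6 and 33.4 CPM in the embryo, against 0, 0.322 and 0 CPM in the central cell (log2 difference 4.40, adjusted p = 8.0e-07). The other, GRMZM2G008250, had 7.73, 10.1 and 11.7 CPM in the embryo and no read in the central cell (at least 194-fold higher). NF-YA13 was present in both, at 30.6, 43.0 and 53.1 CPM in the embryo, against 6.95, 6.10 and 5.95 CPM in the central cell (log2 difference 2.53, adjusted p = 1.2e-05). It had no read in any 4 DAP endosperm library. The 1 NF-Y gene that fell was CA3P1 (log2 difference -0.75, adjusted p = 0.029). It was not called without embryo replicate 1, central cell replicate 1, central cell replicate 2 or all replicate 1 libraries. Nor was it called with each library scaled to the same total or with only the 6 libraries compared.

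Genes of the cell cycle were more often called higher than lower in the embryo. In the list of cyclins and cyclin-dependent kinases, 9 of 13 tested members rose and 1 fell (median 2.21). In the list of the mitotic checkpoint and kinetochore, 4 of 9 tested members rose and 1 fell (median 0.87). The DNA replication list had 8 of 14 higher and 1 lower (median 1.29). Of the kinesin and phragmoplast list, which covers motors of the spindle and of the new cell wall, 10 of 13 were higher and 2 lower (median 1.74). All 10 histone genes tested rose (median 3.65). Beside these counts stand the backgrounds of 20.8% called upward and 21.8% called downward over all genes. Fewer members were called between the embryo and the 4 DAP endosperm. There 3 cyclin and kinase genes were higher and 1 lower, and 1 checkpoint gene was higher and 1 lower. Of the kinesin list 4 were higher and 0 lower, and of the replication and histone lists 1 each was higher and 0 lower. Over all genes, 14.1% were higher and 9.56% lower in that contrast.

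The mitotic cyclin gene cyc3 was at 56.1, 71.5 and 64.2 CPM in the embryo, against 1.50, 1.73 and 2.00 CPM in the central cell (log2 difference 4.56, SE 0.40, adjusted p = 1.0e-07). The gene cyc1 was at 24.4, 76.7 and 58.6 CPM in the embryo, against 0.222, 1.11 and 1.93 CPM in the central cell (log2 difference 4.64, adjusted p = 8.4e-05). Both were at a similar level in the 4 DAP endosperm, with means of 95.9 and 56.5 CPM. For the next pair the endosperm was lower than the embryo. The gene cyclin11 had 14.3, 18.7 and 19.5 CPM in the embryo, against 0.0277, 0.0495 and 0.414 CPM in the central cell (log2 difference 3.99, SE 0.17, adjusted p = 2.2e-11). It had 0.0176, 0.162 and 0.124 CPM in the 4 DAP endosperm (embryo minus 4 DAP endosperm, log2 difference 4.06, adjusted p = 2.6e-11). The G1 cyclin gene cycD4 had 6.22, 20.4 and 29.6 CPM in the embryo, against 0.873, 1.26 and 1.41 CPM in the central cell (log2 difference 2.95, adjusted p = 4.7e-05), with 0.621 CPM as a mean in the 4 DAP endosperm. The inhibitory kinase gene wee1 rose with a log2 difference of 2.68, and the kinase gene cdc2 by less, 0.59, at 16.5, 18.3 and 19.2 CPM in the embryo, against 10.2, 13.7 and 11.3 CPM in the central cell. The exception was cks1, for a small subunit bound to the kinase, which fell to 13.1, 19.2 and 16.5 CPM in the embryo, against 48.9, 49.0 and 34.7 CPM in the central cell (log2 difference -1.38, adjusted p = 0.00015). A second member of the list was called lower without embryo replicate 1 or without all replicate 1 libraries.

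All 10 histone genes tested rose, and 9 did without central cell replicate 1 or without embryo replicate 2. Their log2 differences ran from 2.55 to 4.14. The linker histone gene his1a was at 1204, 1723 and 1823 CPM in the embryo, against 70.9, 96.1 and 235 CPM in the central cell (log2 difference 3.72, SE 0.49, adjusted p = 1.2e-05). The H2A gene his2a1 was at 290.4, 581 and 533 CPM in the embryo, against 18.4, 31.3 and 50.3 CPM in the central cell (log2 difference 3.82, adjusted p = 5.2e-05). The H2B gene his2b2 was at 51.4, 179 and 156 CPM in the embryo, against 2.87, 7.43 and 9.29 CPM in the central cell (log2 difference 4.04, adjusted p = 4.6e-05). In each of these the lowest embryo library stood above the highest central cell library, and embryo replicate 1 was the lowest of the 3. The 3 gene models named H4C13, for H4, may share reads, because near-identical copies and overlapping genes cannot always be told apart by counting. Whether strand was used is not given in the sources used here. They rose by 4.14, 4.14 and 3.04 on the log2 scale. For DNA synthesis, the sliding clamp gene pcna2 was at 199, 372 and 373 CPM in the embryo, against 27.4, 45.5 and 71.6 CPM in the central cell (log2 difference 2.73, SE 0.41, adjusted p = 4.6e-05). The ribonucleotide reductase genes RNRS1, RNRS3 and RNRS2 rose on the log2 scale by 3.09, 3.00 and 2.14, and the flap endonuclease gene FEN-1 by 1.94. RNRS2 lost its call without embryo replicate 2 (adjusted p = 0.055; 1.6e-05 to 0.055 over all alternatives). Among origin recognition genes, orc1 and orc4 rose (log2 differences 1.34 and 1.04) while orc2 fell (log2 difference -0.96, adjusted p = 0.023). No replication gene was called lower without central cell replicate 3, without embryo replicate 2 or with each library scaled to the same total, and 2 were called lower without central cell replicate 1, without all replicate 1 libraries or with the replicate block.

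At the centromere and spindle, the centromeric histone gene model GRMZM2G158526, named cenH3, was at 80.0, 153 and 215 CPM in the embryo, against 7.67, 19.4 and 32.2 CPM in the central cell (log2 difference 2.95, adjusted p = 0.00030). A second model of that name, GRMZM2G157596, was not called, at 28.1, 47.2 and 36.0 CPM in the embryo, against 35.3, 64.0 and 58.8 CPM in the central cell. The spindle checkpoint gene mad2, the cohesin protector gene sgo1 and the chromosome maintenance gene SMC6 rose on the log2 scale by 2.19, 1.88 and 0.87. The gene afd1, for the cohesin of maize meiosis, fell to 41.2, 39.7 and 16.0 CPM in the embryo, against 84.3, 86.4 and 79.9 CPM in the central cell (log2 difference -1.45, adjusted p = 0.00032). With the replicate number as a block, 2 members of this list were lower in place of 1. The kinesin gene KIN13 was at 157, 158 and 168 CPM in the embryo, against 13.4, 12.5 and 17.7 CPM in the central cell (log2 difference 3.40, SE 0.59, adjusted p = 0.00017). The gene kin4 was at 441, 444 and 396 CPM in the embryo, against 76.5, 77.2 and 89.1 CPM in the central cell (log2 difference 2.39, adjusted p = 9.7e-06). The division plane gene tan1 (tangled1) rose on the log2 scale by 1.74. Of 3 models named ktn2, GRMZM2G054715 and GRMZM2G017305 rose (log2 differences 1.26 and 0.85) and GRMZM2G054663 fell (log2 difference -1.31), and PHS1 fell as well (log2 difference -1.53). In the list of 5 genes of the retinoblastoma pathway, which gates entry into DNA synthesis, dnp1 and dnp2 rose (log2 differences 1.71 and 1.00). RBR2 fell to 4.89, 9.14 and 7.003 CPM in the embryo, against 30.9, 22.9 and 19.3 CPM in the central cell (log2 difference -1.67, adjusted p = 0.00024). RBR1 and Rbl1 did not pass the test. For this list, shares of 40% higher and 20% lower stand beside 20.8% and 21.8% over all genes.

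**Figure D3:**
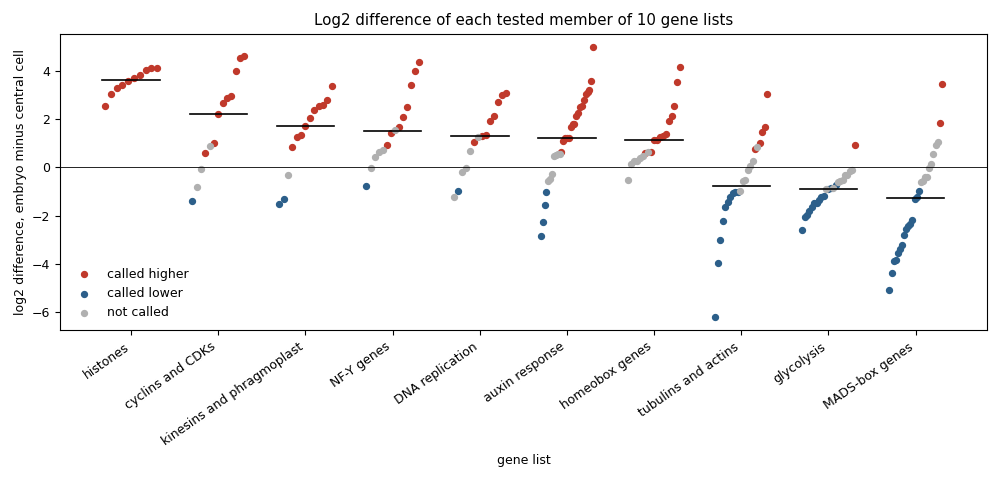
Each point is 1 tested member of a gene list, placed by its log2 difference (embryo minus central cell, log2(CPM + 1) scale) and sorted within its list, with a black line at the list median and colours for the call. All histone points lie above 0 (median 3.65), and the lists at the right, glycolysis (median -0.89) and MADS-box genes (median -1.25), lie mostly below it.

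Among 20 genes of DNA methylation and small RNA pathways, 5 rose and 4 fell (median 0.11), shares of 25% and 20% that are close to the 20.8% and 21.8% over all genes. Of the 6 gene models named met or dmt, 3 rose and 3 were not called. The chromomethylase gene met5 was at 183, 202 and 202 CPM in the embryo, against 5.30, 6.14 and 12.4 CPM in the central cell (log2 difference 4.54, SE 0.30, adjusted p = 3.9e-09), 24.6-fold higher. Its relative met2 was at 133, 113 and 134 CPM in the embryo, against 9.25, 8.37 and 11.8 CPM in the central cell (log2 difference 3.57, SE 0.23, adjusted p = 3.2e-09). The CG methyltransferase gene dmt101 (GRMZM2G334041) was at 438, 283 and 357 CPM in the embryo, against 81.7, 60.4 and 54.8 CPM in the central cell (log2 difference 2.43, SE 0.34, adjusted p = 1.9e-05). The lowest embryo library of each stood above its highest central cell library. A second model named dmt101, GRMZM2G333997, was not called (log2 difference 0.72), nor were met4 (log2 difference 0.43) and dmt106 (log2 difference -0.05). The 4 DAP endosperm held 124, 137 and 287 CPM as means for met5, met2 and dmt101 (GRMZM2G334041), and none was called between the embryo and that endosperm. The argonaute genes argonaute1 and argonaute6 (GRMZM2G347402) rose on the log2 scale by 1.17 and 1.04. The genes that fell belong to small RNA pathways: rmr2, which maintains silencing of paramutated alleles in maize, was at 10.3, 6.71 and 4.92 CPM in the embryo, against 32.9, 29.7 and 27.2 CPM in the central cell (log2 difference -1.94, adjusted p = 7.9e-06). The gene mop1 fell by 0.64 on the log2 scale, and 2 models named dcl4, GRMZM2G160473 and GRMZM2G024466, by 0.72 and 0.65. In this list 1 gene was called lower with each library scaled to the same total or without all replicate 1 libraries, and 2 were without central cell replicate 1 or without embryo replicate 2.

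Of 12 Polycomb and imprinted genes, 8 were tested, 3 rose and 2 fell (37.5% and 25% of those tested, beside 20.8% and 21.8% over all genes). The 3 that rose encode histone-binding WD40 proteins of the nfc group: nfc101 was at 134, 161 and 220.0 CPM in the embryo, against 62.7, 62.0 and 43.8 CPM in the central cell (log2 difference 1.58, SE 0.24, adjusted p = 4.3e-05). The genes nfc103 and nfc102 rose on the log2 scale by 1.16 and 1.08. The Enhancer of zeste gene mez2 fell to 20.96, 13.5 and 26.8 CPM in the embryo, against 39.8, 59.4 and 45.2 CPM in the central cell (log2 difference -1.23, adjusted p = 0.0023). The gene vef101 had 73.9, 57.4 and 48.5 CPM in the embryo, against 113, 95.1 and 79.2 CPM in the central cell (log2 difference -0.68, adjusted p = 0.028). It was not called by edgeR (adjusted p = 0.060), with each library scaled to the same total (0.15) or with only the 6 libraries compared (0.080). Nor was it called without central cell replicate 1 (0.11) or 2 (0.064), or without embryo replicate 2 (0.068) or 3 (0.12; 0.0094 to 0.15 over all alternatives). The gene fie2, a partner of Enhancer of zeste, was not called, at 90.2, 96.6 and 65.3 CPM in the embryo, against 56.5, 53.6 and 56.8 CPM in the central cell (log2 difference 0.57, adjusted p = 0.089), although its groups did not overlap. It passed with each library scaled to the same total (0.017), after quantile normalisation (0.044) and with the replicate block (adjusted p = 0.049; 0.017 to 0.23 over all alternatives). The gene mez1 had 49.2, 55.3 and 62.6 CPM in the embryo, against 67.4, 42.5 and 32.6 CPM in the central cell. The gene mez3 had 14.5, 9.73 and 7.30 CPM in the embryo, against 15.8, 22.7 and 14.99 CPM in the central cell. Neither was called, except without all replicate 1 libraries (adjusted p = 0.019, higher, and 0.015, lower). The endosperm gene fie1, a close relative of fie2, was below the filter, at 0.711, 2.77 and 5.16 CPM in the embryo, against 0.208, 0.520 and 0 CPM in the central cell, with a mean of 82.1 CPM in the 4 DAP endosperm. The imprinted peptide genes MEG1 and meg2 (GRMZM2G088896 and GRMZM2G094054) stayed below 1 CPM in all 6 libraries. Their means in the 4 DAP endosperm were 8.65, 893 and 205 CPM.

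The 6 embryo sac genes gave a median fall larger than that of any other list, with a median of -5.98. Of them 5 were lower and 0 higher (83.3% and 0% of those tested, beside 21.8% and 20.8% over all genes). Beside the es peptides, EBE-2 was at 1.15, 11.8 and 9.54 CPM in the embryo, against 252, 627 and 257 CPM in the central cell (log2 difference -5.70, SE 0.56, adjusted p = 4.0e-07). EBE-1 was at 0.799, 1.86 and 2.74 CPM in the embryo, against 33.3, 69.4 and 35.9 CPM in the central cell (log2 difference -4.06, SE 0.37, adjusted p = 2.0e-07). The EBE genes differed from the peptides in the endosperm: EBE-2 averaged 198 CPM at 4 DAP, and es4 0.0444 CPM. Ea1, an egg apparatus peptide that guides pollen tubes in maize, overlapped between the tissues, at 0.622, 4.28 and 3.67 CPM in the embryo, against 0.734, 2.00 and 2.71 CPM in the central cell, and was not called (log2 difference 0.35, adjusted p = 0.42). Without embryo replicate 1 its call was upward (log2 difference 0.89, adjusted p = 0.0058), as it was without all replicate 1 libraries (0.57, adjusted p = 0.021; 0.0058 to 0.95 over all alternatives). Of 27 endosperm cell-type genes, 10 were tested, 8 rose and 1 fell (80% and 10% of those tested, beside 20.8% and 21.8% over all genes). Apart from the embryo-surrounding genes, the members that rose were ae3 (4.00, 18.5 and 26.9 CPM in the embryo, against 0, 0.0247 and 0.0487 CPM in the central cell), dek1, cr4 and the proton pump gene vpp1. The gene dek1 (defective kernel1) had 86.4, 51.6 and 42.6 CPM in the embryo, against 13.1, 13.7 and 13.3 CPM in the central cell. The gene Sal1 was not called, at 9.06, 31.1 and 29.5 CPM in the embryo, against 15.9, 43.0 and 59.3 CPM in the central cell, and its values overlapped. The genes dek1 and cr4 are needed for the aleurone but act in the epidermis of the plant too. The member that fell, GRMZM2G113203, bears the name MRP1 and the synonym mrpa1 in the reference table, so that its identity with the transfer cell regulator of that name is uncertain. It was at 1.95, 0 and 0.536 CPM in the embryo, against 37.6, 26.3 and 43.3 CPM in the central cell (log2 difference -4.44, adjusted p = 2.8e-07). The replicate block or leaving out all replicate 1 libraries gave a second lower member of this list.

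Auxin transport and response genes differed widely. The efflux carrier gene PIN1a, which directs auxin flow in embryos and meristems, was at 5.33, 10.9 and 8.91 CPM in the embryo, against 0, 0.0619 and 0.122 CPM in the central cell (log2 difference 3.10, SE 0.18, adjusted p = 1.3e-09). It had no read in any 4 DAP endosperm library. Its relative PIN10a went the other way, at 14.9, 1.51 and 1.57 CPM in the embryo, against 23.6, 34.1 and 47.1 CPM in the central cell (log2 difference -2.89, SE 0.53, adjusted p = 0.00031). Embryo replicate 1 lay well above the other 2. The transporter gene br2 (brachytic2) rose to 9.77, 3.11 and 2.82 CPM in the embryo, against 0.0970, 0.198 and 0.0975 CPM in the central cell (log2 difference 2.29, adjusted p = 8.0e-05). PIN1d was below the filter, at 3.73, 0.322 and 0.655 CPM in the embryo, against 1.26, 0.680 and 0.634 CPM in the central cell. PIN8 was below it too, at 0.178, 0 and 0.0793 CPM in the embryo, against 0.859, 0.0247 and 0 CPM in the central cell. Of 37 auxin response genes, 29 were tested, 18 rose and 4 fell (62.1% and 13.8% of those tested, beside 20.8% and 21.8% over all genes; median 1.22). Among auxin response factors, the transcription factors of the pathway, ARF23 was followed by ARF11 (log2 difference 3.07), ARF13 (log2 difference 2.79) and ARF2 (log2 difference 2.54). ARF13 was at 301, 263 and 287 CPM in the embryo, against 38.9, 29.2 and 56.9 CPM in the central cell (log2 difference 2.79, SE 0.21, adjusted p = 2.3e-08), without overlap. ARF10 fell, to 12.8, 23.4 and 24.1 CPM in the embryo, against 41.4, 32.4 and 49.5 CPM in the central cell (log2 difference -1.03, adjusted p = 0.0030). The conjugating enzyme gene GH3 was at 4.44, 17.3 and 17.001 CPM in the embryo, against 0, 0.0495 and 0 CPM in the central cell (log2 difference 3.58, adjusted p = 3.0e-07). The genes named AUX were divided: AUX3 rose (log2 difference 3.19), and AUX9 (GRMZM2G048131) had 2.58, 13.1 and 12.04 CPM in the embryo and no read in the central cell (at least 183-fold higher). Aux311 fell to 0.266, 0.916 and 0.595 CPM in the embryo, against 8.56, 12.9 and 9.99 CPM in the central cell (log2 difference -2.85, adjusted p = 4.0e-06), and AUX17 and AUX14 fell as well (log2 differences -2.27 and -1.54).

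Neither of the 2 auxin synthesis genes tested (of 4) was called. Without the filter, 1 gene of the list was called higher. Yucca3, for a flavin monooxygenase of the last step of auxin synthesis, was at 0.622, 40.4 and 9.40 CPM in the embryo, against 3.64, 14.2 and 10.9 CPM in the central cell (log2 difference -0.09, adjusted p = 0.94), with overlapping values. The 4 DAP endosperm held 1024, 3097 and 3364 CPM (embryo minus 4 DAP endosperm, log2 difference -7.96, adjusted p = 8.2e-07). Yucca6 was at 0.977, 1.46 and 1.01 CPM in the embryo, against 0.734, 2.07 and 3.58 CPM in the central cell (log2 difference -0.44, adjusted p = 0.53). Without all replicate 1 libraries, Yucca6 was called lower (log2 difference -0.75, adjusted p = 0.034; 0.034 to 0.90 over all alternatives). The related gene spi1 (sparse inflorescence1) was below the filter. It had 1.07, 1.98 and 0.992 CPM in the embryo and no read in the central cell or the 4 DAP endosperm. It was at least 26.6-fold higher in the embryo than in the central cell at a floor of 3 reads per library. The gene yuc (GRMZM2G091819) was at 0.178, 0.0124 and 0 CPM in the embryo, against 0, 0.0247 and 0 CPM in the central cell, too low for a test.

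Of 23 tested cytokinin genes (of 31), 8 rose and 6 fell (34.8% and 26.1% of those tested, beside 20.8% and 21.8% over all genes; median 0.48). The response regulator gene RR3 was at 12.9, 11.1 and 32.1 CPM in the embryo, against 0, 0.0742 and 0.0975 CPM in the central cell (log2 difference 4.07, SE 0.31, adjusted p = 1.9e-08). The cytokinin oxidase gene CKX10, for an enzyme that degrades the hormone, was at 8.17, 15.5 and 12.9 CPM in the embryo, against 0, 0.111 and 0.292 CPM in the central cell (log2 difference 3.50, SE 0.20, adjusted p = 9.5e-10). In the 4 DAP endosperm RR3 had no read and CKX10 had 0, 0.0406 and 0 CPM. The receptor genes HK1a2, HK1, HK1b2 and hk2 rose on the log2 scale by 3.03, 1.88, 1.03 and 0.95. The phosphotransfer genes HP3 and HP1 rose by 3.20 and 2.93, but the 4 DAP endosperm stood above the embryo for both (log2 difference -2.87, adjusted p = 0.025 for HP3 and log2 difference -3.31, adjusted p = 0.0044 for HP1, embryo minus 4 DAP endosperm). Among the genes that fell, RR7 was at 0.0888, 0.0371 and 0.0397 CPM in the embryo, against 1.88, 2.65 and 8.34 CPM in the central cell (log2 difference -2.13, adjusted p = 0.00071). RR4 fell by 1.71 on the log2 scale and IPT (GRMZM2G097258), of a synthesis enzyme, by 0.79. The 3 models named crr5 that were tested fell by 0.76, 0.68 and 0.58. The number of lower members was 2 without central cell replicate 3, and 3 without embryo replicate 2 or with each library scaled to the same total. Of 5 gibberellin genes tested (of 6), the synthesis genes d3 and an1 fell and CYP714B3 rose (log2 difference 0.79). These are 40% and 20% of those tested, beside 21.8% and 20.8% over all genes. The gene an1 was at 1.69, 0 and 0.0992 CPM in the embryo, against 7.17, 3.93 and 0.975 CPM in the central cell, and edgeR and DESeq2 did not call it (adjusted p = 0.17 and 0.57; 0.00013 to 0.57 over all alternatives). A second gibberellin gene was higher with the replicate block, with each library scaled to the same total or without central cell replicate 3. Of 11 abscisic acid and ethylene genes tested (of 15), 3 rose, among them vp1 and the receptor gene PYL7 (log2 difference 1.27). In the same list 3 fell, led by aba1 with 0.0888, 0.210 and 0.0198 CPM in the embryo, against 15.5, 21.5 and 36.6 CPM in the central cell (log2 difference -4.45, SE 0.23, adjusted p = 2.4e-10). These are 27.3% and 27.3% of those tested, beside 20.8% and 21.8% over all genes. Another that fell, vp9 (GRMZM2G454928, log2 difference -1.52), lost its call with edgeR or DESeq2 (adjusted p = 0.19 and 0.32). The vp9 call was lost too with a pseudocount of 0.25, and without embryo replicate 2 or 3 or central cell replicate 2 or 3.

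MADS-box genes, a family that includes flower organ identity factors among other members, were mostly lower in the embryo. Of 26 tested (of 34), 15 fell and 2 rose (57.7% and 7.69% of those tested, beside 21.8% and 20.8% over all genes, median -1.25). The gene m29 was at 2.40, 0.867 and 0 CPM in the embryo, against 34.1, 51.3 and 128 CPM in the central cell (log2 difference -5.06, SE 0.50, adjusted p = 4.3e-07). The gene m18 was at 2.13, 4.11 and 0.317 CPM in the embryo, against 33.5, 47.7 and 110.0 CPM in the central cell (log2 difference -4.37, SE 0.52, adjusted p = 3.5e-06). The AGAMOUS-like gene zag2, known from carpels and ovules, was at 1.33, 14.98 and 3.65 CPM in the embryo, against 67.1, 79.8 and 92.1 CPM in the central cell (log2 difference -3.84, adjusted p = 4.6e-05). The gene m6 was at 1.33, 1.99 and 2.24 CPM in the embryo, against 17.5, 54.0 and 69.4 CPM in the central cell (log2 difference -3.88, adjusted p = 6.6e-06). All 4 were lower in every embryo library than in any central cell library, and the highest embryo library was replicate 2 for zag2. The gene m19 was at 7.37, 26.2 and 12.6 CPM in the embryo, against 87.3, 81.6 and 83.2 CPM in the central cell (log2 difference -2.54, SE 0.29, adjusted p = 2.3e-06). The 2 genes that rose were MADS42, at 5.77, 10.7 and 16.5 CPM in the embryo, against 0, 0.0124 and 0 CPM in the central cell with a single central cell read (log2 difference 3.48, adjusted p = 2.5e-05), and zap1. The maize APETALA1-like gene zap1 was at 3.38, 3.40 and 5.89 CPM in the embryo, against 1.01, 0.148 and 0.219 CPM in the central cell (log2 difference 1.85, adjusted p = 1.8e-06). Without embryo replicate 1, without all replicate 1 libraries, with each library scaled to the same total or with the replicate block, 4 rose.

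Of 29 MYB and NAC genes tested (of 41), 11 rose and 4 fell (37.9% and 13.8% of those tested, beside 20.8% and 21.8% over all genes). Myb36 was at 5.15, 12.28 and 2.68 CPM in the embryo, against 0.139, 0.0742 and 0.0975 CPM in the central cell (log2 difference 2.60, adjusted p = 3.5e-06). NAC5 was at 2.22, 7.95 and 13.7 CPM in the embryo, against 0.762, 0.346 and 0.414 CPM in the central cell (log2 difference 2.33, adjusted p = 5.0e-05). Those counts were 7 higher without embryo replicate 2, and 2 lower without embryo replicate 3, without central cell replicate 2 or with each library scaled to the same total. Of 16 AP2/ERF genes tested (of 23), 6 rose and 4 fell (37.5% and 25% of those tested, beside 20.8% and 21.8% over all genes). EREB171 was at 84.2, 76.8 and 96.7 CPM in the embryo, against 10.1, 14.96 and 16.3 CPM in the central cell (log2 difference 2.58, SE 0.27, adjusted p = 8.6e-07). EREB85 fell to 6.04, 10.6 and 6.23 CPM in the embryo, against 43.9, 35.2 and 41.2 CPM in the central cell (log2 difference -2.29, adjusted p = 4.3e-05). Of 7 WRKY genes tested (of 13), WRKY3 (log2 difference 1.53) and WRKY116 (log2 difference 0.88) rose and none fell. These are 28.6% and 0% of those tested, beside 20.8% and 21.8% over all genes. The number that rose was 4 without embryo replicate 2 or without central cell replicate 3.

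Genes of glycolysis and fermentation were mostly lower in the embryo, with 13 of 23 tested members (of 25) down and 1 up (56.5% and 4.35%, beside 21.8% and 20.8% over all genes; median -0.89). The glyceraldehyde 3-phosphate dehydrogenase gene gpc4 was at 379.6, 404 and 391 CPM in the embryo, against 2144, 2353 and 2646 CPM in the central cell (log2 difference -2.60, SE 0.41, adjusted p = 6.8e-05), 6.08-fold lower. Its relatives GPC1 and gpc3 fell by 1.17 and 1.24 on the log2 scale, the isomerase gene phi1 (GRMZM2G065083) by 2.06 and the hexokinase gene hex2 by 1.79. The alcohol dehydrogenase gene adh1 was at 209, 172 and 119 CPM in the embryo, against 443, 348 and 595 CPM in the central cell (log2 difference -1.47, SE 0.28, adjusted p = 0.00042). For gpc4 and adh1 the 3 embryo libraries all stood below the central cell, and the 4 DAP endosperm was higher again, with means of 2628 and 1770.5 CPM. The fructokinase gene frk2 rose (log2 difference 0.92, adjusted p = 0.047), with overlapping values. It lost its call without embryo replicate 2 or 3, without central cell replicate 1 or 2, or with only the 6 libraries compared. Without embryo replicate 1, 8 genes of the list were lower.

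Of 23 starch genes tested, 5 rose and 6 fell (3 without embryo replicate 1), shares of 21.7% and 26.1% that are close to the 20.8% and 21.8% over all genes. Which direction held more calls changed in 4 alternatives. The sucrose synthase gene sh1 (shrunken1) was at 150.0, 85.5 and 123 CPM in the embryo, against 45.2, 31.2 and 57.2 CPM in the central cell (log2 difference 1.41, adjusted p = 0.011). Its level in the 4 DAP endosperm was 2.27, 0.244 and 1.46 CPM. The starch synthase genes du1 and GBSSIIa rose on the log2 scale by 1.48 and 1.42, while the branching enzyme gene sbe1 (GRMZM2G088753) fell by 1.45. Sugar transport genes gave 1 higher (sut4, log2 difference 1.11) and 2 lower among 4 tested, the lower ones being sut2 (log2 difference -1.04) and the invertase gene IVR1. Their shares were 25% and 50%, beside 20.8% and 21.8% over all genes. IVR1 was at 0.178, 0.173 and 0.397 CPM in the embryo, against 4.54, 5.31 and 10.5 CPM in the central cell (log2 difference -2.57, adjusted p = 5.5e-05). The sut4 call was lost without central cell replicate 1 (adjusted p = 0.079). The sut2 call was lost without central cell replicate 1 (0.066), without embryo replicate 2 (0.11) or with only the 6 libraries compared (0.056). In this order, the ranges were 0.0018 to 0.079 over all alternatives and 0.00018 to 0.11 over all alternatives. The oleosin gene ole17, of the coat of oil bodies, had 3 reads in all in the embryo, against 18.6, 35.4 and 51.5 CPM in the central cell (log2 difference -5.05, SE 0.26, adjusted p = 1.8e-10). Among storage genes, fl3 rose to 5.95, 13.8 and 4.05 CPM in the embryo, against 0.693, 0.705 and 0.219 CPM in the central cell (log2 difference 2.40, adjusted p = 0.00077). This was below the 128 CPM of the 4 DAP endosperm, and the zein gene gz27 fell (log2 difference -1.32). FL1 also rose (log2 difference 0.73, adjusted p = 0.026). It lost its call without embryo replicate 2 (0.093) or 3 (0.088), without central cell replicate 2 (0.14), and with edgeR or DESeq2 (adjusted p = 0.20 and 0.18; 0.0046 to 0.20 over all alternatives). The call was also lost with only the 6 libraries compared (0.12, or 0.10 with the replicate block) and with a pseudocount of 0.25 (0.082). Of 10 fatty acid synthesis genes, 3 fell, the carboxylase gene ACC1 (log2 difference -1.10) and the acyl carrier protein genes acp (log2 difference -1.38) and ACP (log2 difference -2.04). That is 30% of those tested, and 10% rose, beside 21.8% and 20.8% over all genes. ACC1 was not called without central cell replicate 1 (adjusted p = 0.054) and acp was not without embryo replicate 1 (0.096) or central cell replicate 2 (0.053) or 3 (0.097), with ranges of 7.2e-06 to 0.054 over all alternatives and 4.3e-06 to 0.097 over all alternatives. The desaturase gene fad8 rose to 78.0, 10.4 and 8.01 CPM in the embryo, against 8.39, 5.80 and 4.14 CPM in the central cell, with overlapping values. Without embryo replicate 1 it was not called (adjusted p = 0.085), nor was it with only the 6 libraries compared (0.11). The call was lost as well without central cell replicate 2 (0.060) or 3 (0.086; 0.0039 to 0.11 over all alternatives). Among 8 photosynthesis genes tested, the carboxylase gene Pep1 rose to 19.5, 52.7 and 52.6 CPM in the embryo, against 0.0416, 0.458 and 0.512 CPM in the central cell (log2 difference 4.88, SE 0.29, adjusted p = 1.4e-09). ME1 and me4 rose as well, and me2 and PSBQ fell. Shares of 37.5% higher and 25% lower stand beside 20.8% and 21.8% over all genes.

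Of 22 tubulin and actin genes tested, 5 rose and 10 fell (22.7% and 45.5% of those tested, beside 20.8% and 21.8% over all genes). TUB1 was at 135, 257 and 289.9 CPM in the embryo, against 17.3, 19.3 and 46.8 CPM in the central cell (log2 difference 3.06, SE 0.61, adjusted p = 0.00059). In contrast, tub3 was at 3.20, 13.2 and 7.26 CPM in the embryo, against 95.1, 98.6 and 194 CPM in the central cell (log2 difference -3.96, SE 0.42, adjusted p = 1.2e-06), and tub4 fell by 3.01 on the log2 scale. Different tubulin genes were thus the higher ones in each tissue. The number of higher members was 3 without embryo replicate 3, central cell replicate 1 or central cell replicate 2. Of 24 cell wall genes tested, 6 were higher and 7 lower (25% and 29.2% of those tested, beside 20.8% and 21.8% over all genes), and 11 were lower without all replicate 1 libraries. The cellulose synthase-like gene CSLD1 was at 9.50, 26.4 and 26.4 CPM in the embryo, against 0.540, 0.495 and 0.390 CPM in the central cell (log2 difference 3.75, SE 0.63, adjusted p = 0.00013). The cellulose synthase gene CesA13 was at 0.266, 0.0371 and 0.317 CPM in the embryo, against 14.6, 16.2 and 38.8 CPM in the central cell (log2 difference -4.20, SE 0.31, adjusted p = 1.3e-08). CesA12 and the expansin gene expA4 fell by 3.53 and 4.51 on the log2 scale. Among lipid transfer protein genes, plt2 and LTP3 rose (log2 differences 2.78 and 2.10) and plt1 fell (log2 difference -1.50).

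Most ribosomal protein genes did not pass the test: of 36 tested, 6 rose and 1 fell, against the background of 20.8% and 21.8% over all genes. With the replicate block 17 rose and 3 fell, with each library scaled to the same total 10 rose, without all replicate 1 libraries 15 rose and 2 fell, and without central cell replicate 1 3 rose and 2 fell. The gene rpl10 was at 85.0, 100.4 and 129 CPM in the embryo, against 35.8, 38.0 and 31.6 CPM in the central cell (log2 difference 1.53, adjusted p = 0.00024). The gene that fell, arpp2b, for an acidic stalk protein, was at 7.82, 14.5 and 17.22 CPM in the embryo, against 285, 423 and 259 CPM in the central cell (log2 difference -4.54, SE 0.34, adjusted p = 1.8e-08). Translation factor genes gave 3 higher, the elongation factor genes elfa3, elfa2 and elfa7 (log2 differences 0.98, 0.78 and 0.76). They gave 3 lower, the initiation factor genes TIF, eif7 and eIF-5 (log2 differences -2.81, -1.53 and -1.23). Each count is 23.1% of the members tested, near the shares over all genes. The other 7 were not called, among them the initiation factor genes eif3 and eIF-4A (log2 differences 0.42 and 0.39) and the elongation factor gene EF1-A (log2 difference 0.19). The number higher was 0 without central cell replicate 2, and 1 without embryo replicate 1 or 3 or with only the 6 libraries compared. It was 5 with the replicate block or without all replicate 1 libraries, and 6 with each library scaled to the same total.

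Of 20 heat shock genes tested, 8 rose, among them hscf1, hsp22 (log2 difference 2.47) and HSP90-2 (log2 difference 1.31), and 4 fell, among them the heat stress factor gene Hsf01 (log2 difference -1.66). These are 40% and 20% of those tested, beside 20.8% and 21.8% over all genes. Among those that rose, Hsf05 (GRMZM2G133023, log2 difference 1.55) lost its call with edgeR or DESeq2 (adjusted p = 0.079 and 0.053). It was not called without embryo replicate 2, central cell replicate 1 or all replicate 1 libraries. The balance of calls turned in 1 alternative for the next list and in 2 for the defence list. Of 24 genes of chaperones of the endoplasmic reticulum, 5 rose and 7 fell (20.8% and 29.2% of those tested, beside 20.8% and 21.8% over all genes). The counts were 3 and 3 without embryo replicate 1, and 4 were lower with each library scaled to the same total. PDIL2-3, which rose (log2 difference 1.61), was not called without embryo replicate 2 or 3 or central cell replicate 2. The calreticulin gene CRT was at 236, 345 and 737 CPM in the embryo, against 1547, 1468 and 2796 CPM in the central cell (log2 difference -2.24, SE 0.44, adjusted p = 0.00053). Of 27 defence and protease inhibitor genes tested, 10 rose and 9 fell (5 without embryo replicate 1), shares of 37.0% and 33.3%, beside 20.8% and 21.8% over all genes. Beside gst23 and PR10, the higher ones included the terpene synthase gene TPS4 (10.9, 8.62 and 11.98 CPM in the embryo, against 0.402, 0.705 and 0.439 CPM in the central cell). The cystatin gene cc6, for an inhibitor of cysteine proteases, was at 0.266, 0.508 and 0.278 CPM in the embryo, against 13.3, 38.9 and 81.9 CPM in the central cell (log2 difference -4.75, SE 0.53, adjusted p = 1.8e-06). GST3 fell by 3.93 on the log2 scale. Of 8 cell death and protease genes, vpe1 rose (log2 difference 1.38) and ccp2 and LSD1 fell (log2 differences -3.27 and -1.58). These are 12.5% and 25% of those tested, beside 20.8% and 21.8% over all genes. The LSD1 call was lost without embryo replicate 1 (adjusted p = 0.14), without central cell replicate 3 (0.10) or without all replicate 1 libraries (0.055). It was lost as well with edgeR (0.061) and with only the 6 libraries compared (0.055; 0.0036 to 0.14 over all alternatives). In this list 2 genes rose without central cell replicate 3 or with each library scaled to the same total, and 1 fell without embryo replicate 1, without central cell replicate 3 or without all replicate 1 libraries.

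**Figure D4:**
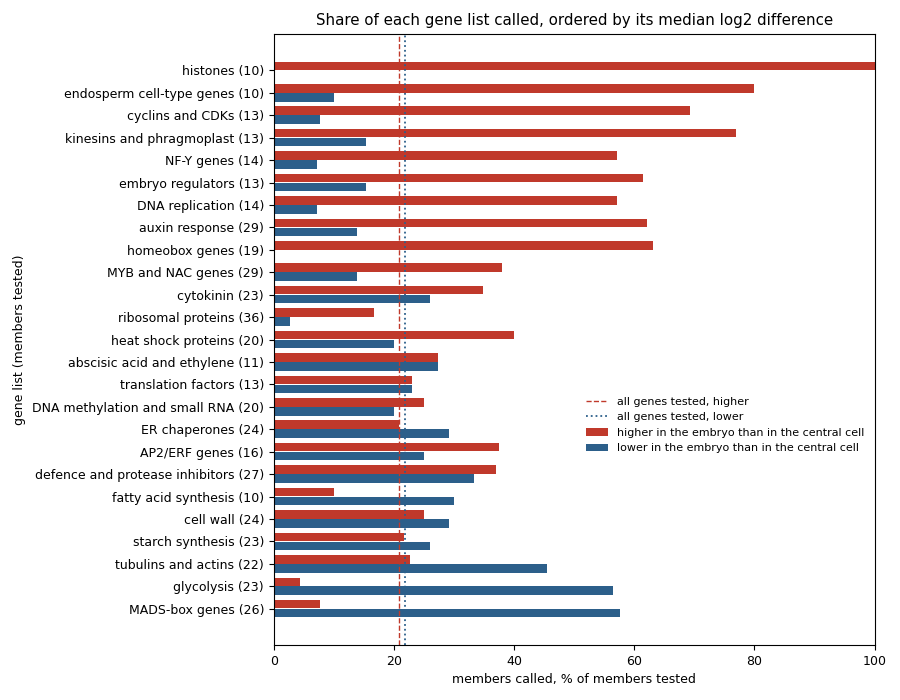
Bars give the share of tested members of each list with at least 10 of them (number in brackets) that was called higher (red, upper bar) or lower (blue, lower bar) in the embryo than in the central cell, and dashed and dotted lines the shares over all genes tested, 20.8% and 21.8%. Histones reach 100% higher and MADS-box genes have the most lower members, 15 of 26.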

How the data were processed

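RNA from laser-captured embryo (4 DAP) and central cell (0 DAP) of B73 was measured by paired-end sequencing of amplified cDNA, 3 libraries each, within a series of 18. The authors deposited 1 table of values per gene and library, named CPM, whose unit is treated here as a signal: the authors' column totals are not those of plain CPM, so a normalisation factor per library is part of the deposited values. Per the submitters' processing notes, the tools named are TopHat2 2.0.9, Trimmomatic, edgeR and bedtools 2.17.0, the genome is B73 RefGen_v3, no role is given for any of them, and strandedness is not given in the sources used here. Each deposited value was a whole multiple of the library's value for 1 read (100% of values, within 0.001 reads), which gave the number of reads per gene. No column of the table was left unmapped.

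Values were analysed as log2(CPM + 1) with limma 3.58.1 (R 4.3.3), with a mean for each of the 6 groups over all 18 libraries (12 residual degrees of freedom) and Benjamini-Hochberg adjustment over the 27594 genes that passed the filter. A fold change on this scale understates the change of low genes. Folds in the text are ratios of mean CPM. A group without reads was set at a floor of 3 reads per library, and with 1 to 3 reads in a group no fold is given. Such floors cover counting error only, since amplified reads are not independent molecules. Counts per library were compared with an exact permutation test. The fit was also run on simulated data, and the outcome of that run is not given here. Each replicate came from 1 ear per the labels, and whether the ears came from different plants is not given.

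The labels number the replicates in every group. Deviations from the group means of same-numbered embryo and central cell libraries had Pearson r of 0.456, 0.155 and 0.239 over genes. Each was above 0.1, the limit for treating the numbers as pairs. Embryo replicate 2 with central cell replicate 3 (0.270) and embryo replicate 3 with central cell replicate 2 (0.121) also exceeded 0.1, and the other 4 unlike-numbered pairs lay between -0.357 and -0.193. The check therefore sets replicate 1 apart and does not tell replicates 2 and 3 from each other, and no label states what a number shares. Deviations from a group mean sum to 0 for each gene, so the r values above are not independent of each other. The fit without the block was kept as the main one although the limit was met, and the block is given as an alternative.

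Alternatives were edgeR 4.0.16 (quasi-likelihood test) and DESeq2 1.42.0 on the recovered reads, a replicate block, other filters, pseudocounts and scalings, and leaving out libraries. Named genes are the 10 highest and 10 lowest called genes with a name, at least 10 CPM in the higher group and groups without overlap, up to 4 called genes per list, all members of 5 lists, and the 5 highest and lowest genes with any reference entry. Further list members were named after their values had been seen. All members and the 40 lists were chosen with earlier results of these data known. Gene names came from the RefSeq table of Zm-B73-REFERENCE-NAM-5.0, in which 14444 of 38300 identifiers (37.7%) were found and 1961 had a name. A planned search of promoters for motifs was not run, because no sequence of the files' build was used here.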

Additional observations from a re-analysis of the deposited data

How the results depend on the processing

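The count of 11764 called genes stayed within 1.5 times under every alternative except the stricter filter of 5 CPM, under which 15824 genes were tested and 7746 were called, fewer because fewer were tested (3852 higher and 3894 lower). With the replicate number as a block, which treats the numbers as pairing the libraries, 14808 genes were called (7289 higher and 7519 lower), 11763 of them among the 11764. Among the 169 tested genes of the naming rule given above, the block changed the call of fie2 only. It also changed calls of further list members, among them cenH3 (GRMZM2G157596) and Sal1, both called lower with the block. Counts were 10722 with edgeR, 11745 with DESeq2, 9062 with only the 6 libraries compared, 11473 and 11812 with pseudocounts of 0.25 and 5, 12372 after quantile normalisation, 13519 without a filter and 12335 with the filter set over 18 libraries. Leaving out 1 library gave 9884 to 10918. Of these 169 genes, 134 kept direction and call under all 19 alternatives in which they could be computed, and none reversed. Further list members named in the text are not part of this count. edgeR alone ended the calls of CYP714B3, me4, plt1 and vpe1, DESeq2 alone those of Myb56, wox9A and wox9C, and both those of an1, GAPN and gz27; the cause was not tested. The call of cr4 was lost without all replicate 1 libraries, that of elfa3 without central cell replicate 2, and that of RPL27A without embryo replicate 2 or central cell replicate 1. The difference in genes at or above 1 CPM was -118 genes, and -210 and 120 genes at 0.5 and 5 CPM. Of 1520 comparisons of a list count with an alternative, 1366 were within 1.5 times. Having 3 libraries per group and 9572961 reads in embryo replicate 1 limits what can be seen for genes near 1 CPM.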

Other observations

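The genes with the largest differences had separate courses in the endosperm, which descends from the central cell. The 1172 genes called at least 4-fold higher in the embryo had a median of the group means of 22.4 CPM there, against 1.72 CPM in the central cell. In the endosperm that median was 4.36 CPM at 1 DAP, 3.33 at 2 DAP, 5.97 at 3 DAP and 7.42 at 4 DAP. The 1129 genes called at least 4-fold lower had 1.88 CPM in the embryo, against 24.8 CPM in the central cell, and 10.4, 4.45, 3.39 and 3.23 CPM in the endosperm of 1, 2, 3 and 4 DAP. These medians are a description: the embryo and central cell values chose the genes, and no test was made.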
